A study of Homo sapiens with 13 samples.

Results

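The genes described here are 7 secreted ligands of the TGF-beta superfamily (TGFB1, TGFB2, INHBA, BMP2, BMP3, BMP4 and BMP7), the activin-binding antagonist FST (follistatin), and SMAD7 and ID1, a pair of genes read as transcriptional readouts of the pathway. They were chosen by symbol, matched to the gene identifiers of the count tables, and they are 10 of the 62703 genes listed there. RNA was sequenced from 13 libraries of ovarian cancer cell lines, 9 of SKOV3 and 4 of OVCAR3. The study asks how RSF1, a chromatin-remodelling factor, and its UAB segment, which binds ubiquitinated histone H2A, act in such cells. SKOV3 cells overexpressed RSF1 (3 libraries), overexpressed RSF1delUAB, in which the UAB segment is deleted (3 libraries), or carried the control vector (3 libraries). OVCAR3 cells expressed a UAB peptide (2 libraries) or a scramble control (2 libraries), and all 4 of these had received 2000 ng/mL doxycycline for 6 days, so the scramble libraries carry the drug as well. No treatment is given for SKOV3. The labels do not say whether the replicates of a group were separate cultures or whether a line is 1 clone, so the p-values describe the scatter among these libraries, and that scatter may be technical.

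TGF-beta and activin ligands bind type II and type I receptor kinases that phosphorylate SMAD2 and SMAD3, whereas BMPs use other receptors that phosphorylate SMAD1, SMAD5 and SMAD9. Both branches share SMAD4, and both induce SMAD7, an inhibitory SMAD that turns the receptors off again, while ID1, a helix-loop-helix protein without a DNA-binding part, is a direct target best known from the BMP branch. In ovarian carcinoma, activin A and TGF-beta are known as secreted factors that tumour and stromal cells both make. Messenger levels of a ligand do not give the amount of active ligand, since TGF-beta is secreted in a latent form and follistatin captures activin.

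RSF1, the overexpressed gene, came first as a test of the SKOV3 labels. It stood at 631, 775 and 749.8 CPM (read counts brought to a common library size with TMM) in RSF1 libraries and at 459, 496 and 509 CPM in RSF1delUAB libraries, against 42.2, 47.5 and 42.2 CPM in control libraries. In OVCAR3 it overlapped between the groups, at 787 and 586 CPM with UAB and 564 and 707 CPM with scramble, so it does not check those labels. Total counts ran from 15194678 to 18748009 in SKOV3 and from 18160558 to 24026993 in OVCAR3. Of 10 epithelial and ovarian carcinoma markers, OVCAR3 libraries had PAX8 at 607 to 716 CPM and CDH1 at 168 to 203 CPM. SKOV3 libraries had PAX8 at 274 to 515 CPM but CDH1 at no more than 1.08 CPM and MUC16 at no more than 0.189 CPM. They also had KRT8 at 322 to 736 CPM, KRT7 at 173 to 437 CPM and MECOM at 228 to 483 CPM. KRT18 was at 120 to 149 CPM there, SOX17 at 44.3 to 62.5 CPM and EPCAM at 10.5 to 21.9 CPM. WT1 did not exceed 3.58 CPM in SKOV3. In OVCAR3 WT1 had 61.4 and 63.1 CPM with UAB, against 10.4 and 16.6 CPM with scramble. RSF1 replicate 1 stood apart from RSF1 replicates 2 and 3 (chi-square per degree of freedom of 14.4 and 16.4, against 3.94 between those others), as did the OVCAR3 replicates from each other (13 for UAB and 15.3 for scramble), and a value without such a library is given where it changes a call, a direction or a size.

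To show the letters that SMAD proteins are known to recognise near the start of the readouts and of the TGF-beta and activin ligands, the 250 bases before the first listed start site of 5 genes were printed 5′ to 3′ from RefSeq (GRCh38.p14), with the SMAD box GTCT, read on either strand and so also as AGAC, in capitals. They are TGFB1 at chr19:41353923-41354172 (minus strand), TGFB2 at chr1:218345086-218345335 (plus strand), INHBA at chr7:41703091-41703340 (minus strand, inside the span the annotation gives for the gene), SMAD7 at chr18:48950966-48951215 (minus strand) and ID1 at chr20:31605039-31605288 (plus strand).
TGFB1: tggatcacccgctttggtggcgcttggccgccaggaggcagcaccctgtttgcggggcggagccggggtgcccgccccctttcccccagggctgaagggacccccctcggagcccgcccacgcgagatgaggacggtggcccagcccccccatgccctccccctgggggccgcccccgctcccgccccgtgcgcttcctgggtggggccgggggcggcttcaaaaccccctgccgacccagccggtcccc
TGFB2: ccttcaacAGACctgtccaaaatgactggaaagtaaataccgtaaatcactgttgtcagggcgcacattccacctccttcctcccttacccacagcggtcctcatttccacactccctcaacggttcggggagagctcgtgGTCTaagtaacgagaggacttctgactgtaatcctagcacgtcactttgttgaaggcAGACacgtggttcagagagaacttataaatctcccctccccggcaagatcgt
INHBA: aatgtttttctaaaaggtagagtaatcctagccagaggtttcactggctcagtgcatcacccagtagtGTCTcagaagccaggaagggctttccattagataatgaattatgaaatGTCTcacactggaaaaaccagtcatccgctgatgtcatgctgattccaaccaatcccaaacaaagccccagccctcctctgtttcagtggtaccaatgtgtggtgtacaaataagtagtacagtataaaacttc
SMAD7: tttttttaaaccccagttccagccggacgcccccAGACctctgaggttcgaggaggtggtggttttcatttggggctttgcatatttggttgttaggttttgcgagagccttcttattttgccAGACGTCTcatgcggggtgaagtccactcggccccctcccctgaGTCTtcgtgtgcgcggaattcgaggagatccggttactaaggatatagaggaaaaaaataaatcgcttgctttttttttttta
ID1: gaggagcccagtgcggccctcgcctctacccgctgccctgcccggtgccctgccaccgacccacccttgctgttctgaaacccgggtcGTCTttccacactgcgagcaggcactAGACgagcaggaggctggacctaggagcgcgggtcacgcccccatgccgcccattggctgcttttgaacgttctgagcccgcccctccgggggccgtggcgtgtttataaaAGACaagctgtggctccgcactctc

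The SMAD7 stretch holds 4 SMAD boxes, a pair of them side by side as AGACGTCT, the ID1 and TGFB2 stretches hold 3 each and the INHBA stretch holds 2, while the TGFB1 stretch holds none. Of the stretches not printed, that before the first listed start of FST holds 3 and that of BMP4 holds 2. Such a short motif is common, and 77.5% of 34943 promoters of the same length in the table hold at least 1. The palindrome GTCTAGAC, in which the boxes face each other and which therefore contains GTCT on both strands, is in 0.183% of these promoters and in none of the members' stretches searched. A match is a description of the letters and no evidence of binding. The letters TATAAA, also read on either strand and so as TTTATA, are present in 10.8% of promoters. They occur once in the TGFB2 and INHBA stretches. In the ID1 stretch they occur at 2 overlapping places, first as TTTATA and then as TATAAA. Of the 10 genes 7 have an entry in the promoter table; BMP2, BMP3 and BMP7 do not.

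The lines made different ligands. On the TPM scale (read counts divided by exonic length and brought to a common sum, which lets genes be compared), TGFB1 was the most abundant of the 7 ligands in all 9 SKOV3 libraries and BMP7 in all 4 OVCAR3 libraries. GDF15, a family member outside the 7, was higher than TGFB1 with the constructs, at 414 ± 31.8 TPM with RSF1 and 207 ± 11 TPM with RSF1delUAB, against 17.4 ± 0.400 TPM in the SKOV3 control (SD, n = 3 each). BMP7 averaged 282 ± 3.72 TPM with UAB and 92.4 ± 12.2 TPM with scramble in OVCAR3 (SD, n = 2 each), while 1 read in total was counted for it in the 9 SKOV3 libraries. BMP2 showed the opposite, with no read in any of the 4 OVCAR3 libraries, where 3 reads, the limit that a count of 0 allows, would be 0.128 to 0.164 CPM. These are counting limits only. Levels were scaled within each line's own table, so differences between lines are descriptions without a test.

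**Figure D1:**
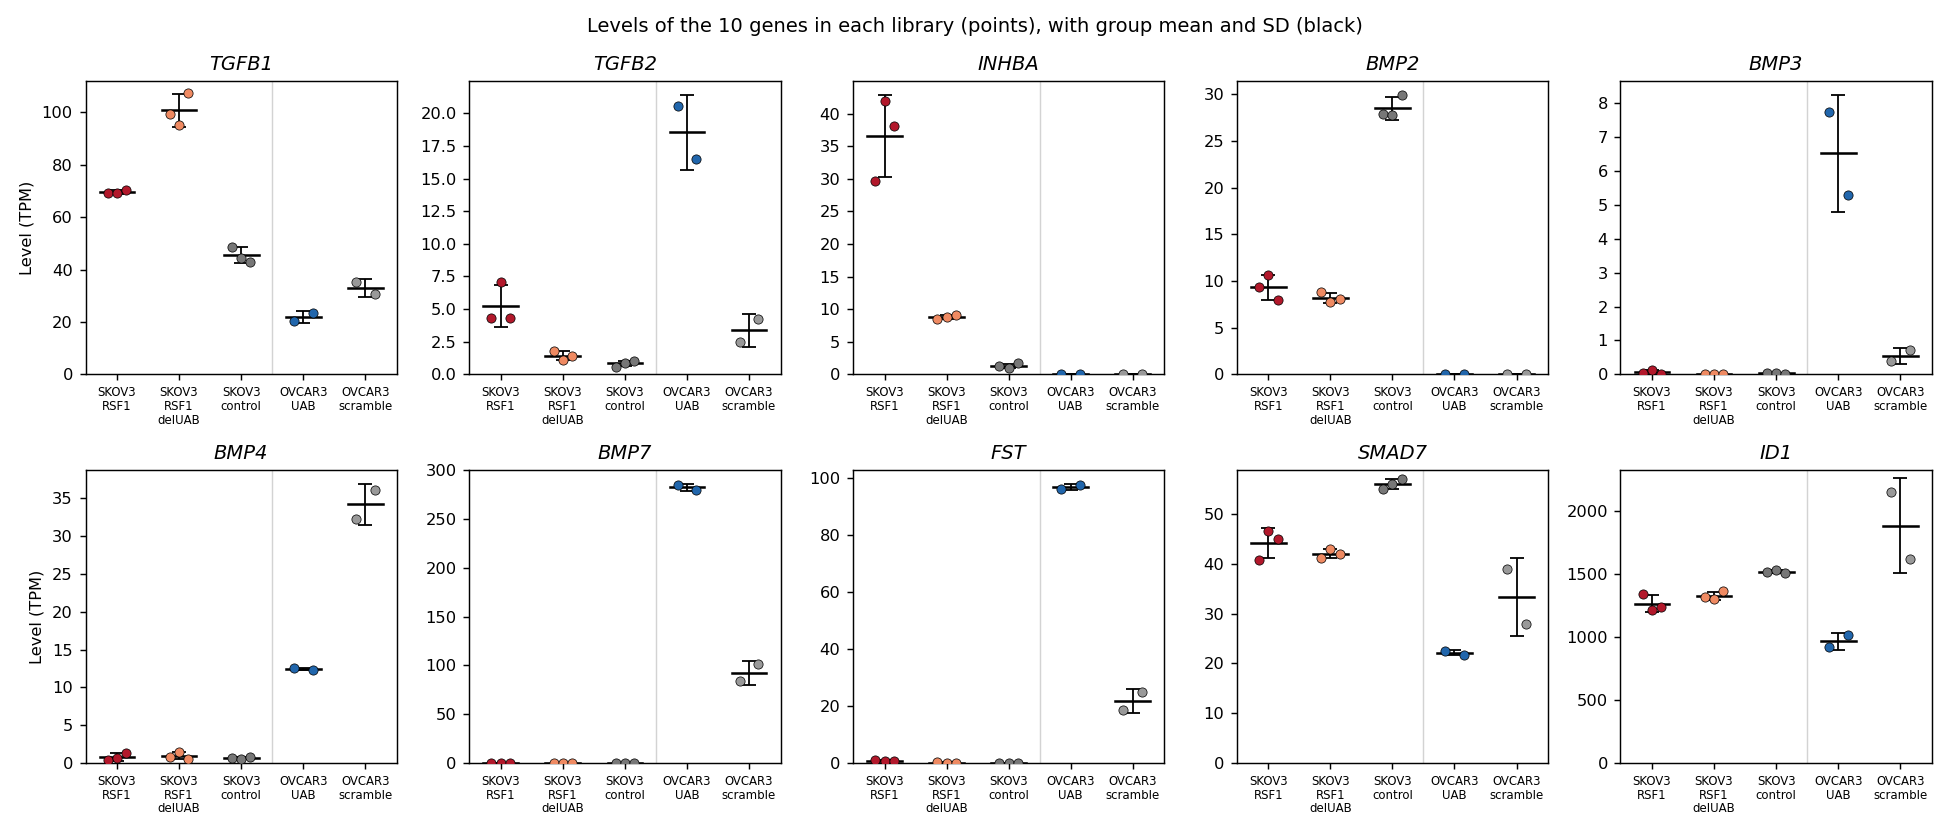
Level of each of the 10 genes in TPM (y axis, from 0) in every library (points), with the group mean and SD (black); SKOV3 groups stand left of the grey line and OVCAR3 groups right of it. INHBA and BMP2 are seen in SKOV3 groups, BMP3, BMP7 and FST almost entirely in OVCAR3 groups, and ID1 is the highest of the 10 in every group.

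Summed over the 7 ligands, the 4 BMPs made up 8.62%, 8.80% and 7.70% of ligand TPM in RSF1 libraries and 8.08%, 8.08% and 6.82% in RSF1delUAB libraries, against 36.1%, 37.9% and 40.2% in control libraries. The construct libraries were thus all below the control libraries, and the RSF1 and RSF1delUAB ranges overlapped. The summed TGF-beta and activin ligands reached 111 ± 7.66 TPM with RSF1 and 111 ± 6.60 TPM with RSF1delUAB, against 47.5 ± 2.71 TPM in the control (SD, n = 3 each). In OVCAR3 the BMP share was 88.2% and 88.1% with UAB and 75.4% and 79.8% with scramble. There the summed BMP level was 301 ± 5.61 TPM with UAB and 127 ± 15.2 TPM with scramble (SD, n = 2 each), and the TGF-beta and activin sum was 40.5 ± 0.468 TPM with UAB and 36.4 ± 2.24 TPM with scramble. Since the ligands were chosen with results of these data known, no test of the shares is given. Family members outside the 7 are not in these sums, and some had similar or higher levels. INHBB averaged 40.4 TPM with UAB and 26.9 TPM with scramble. In SKOV3 BMP6 averaged 1.94 TPM with RSF1, 8.11 TPM with RSF1delUAB and 6.68 TPM in the control. AMH averaged 12.8 TPM with RSF1, 11.7 TPM with RSF1delUAB and 32.5 TPM in the control. Each was above the mean sum of the 4 BMPs, at 10.2, 9.18 and 29.2 TPM in the same order. GDF11 averaged 16.3 TPM with RSF1, 27.9 TPM with RSF1delUAB and 23.5 TPM in the control. The shares therefore hold for the 7 ligands only.

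**Figure D2:**
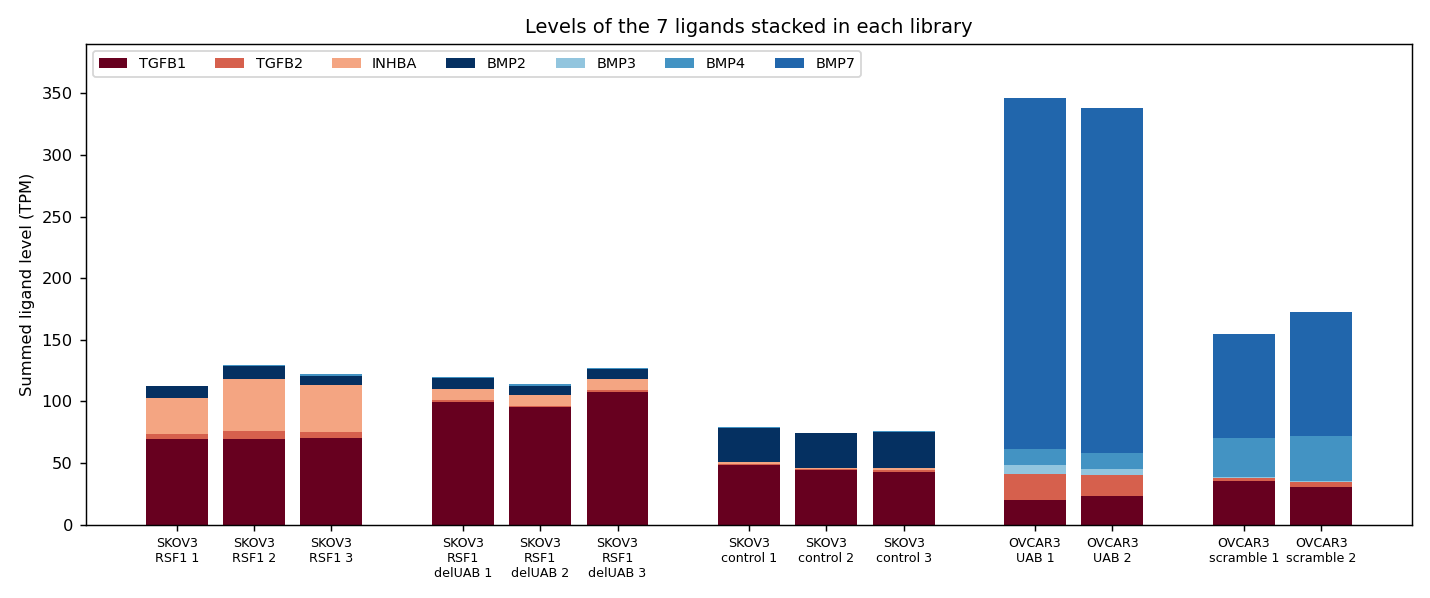
TPM of the 7 ligands stacked in each library (x axis), TGF-beta and activin ligands in reds and BMPs in blues. In SKOV3 the construct libraries reach 113 to 130 TPM, against 74.6 to 79.2 TPM in the control libraries, and in OVCAR3 the UAB libraries reach 338 and 346 TPM, against 154 and 173 TPM with scramble.

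The first comparisons ask what RSF1 and RSF1delUAB change in SKOV3. With RSF1, the TGF-beta and activin ligands were higher than in the control and BMP2 was lower, and the readouts SMAD7 and ID1 were slightly lower. Of the 10 genes 7 passed the filter on low counts, and 6 of these passed the test, 3 higher and 3 lower; 67.3% of all 16735 tested genes passed it. With RSF1delUAB 6 of the 7 tested also passed, 3 higher and 3 lower, against 66.6% of all genes. With 7 genes and backgrounds of this size, nothing particular to the members is read from either count. Both comparisons use the same 3 control libraries. Tests were edgeR's quasi-likelihood test with Benjamini-Hochberg adjustment over all tested genes.

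TGFB1 (ENSG00000105329, chromosome 19, 41301587 to 41353922, minus strand) encodes the most widely expressed TGF-beta isoform. It had 61.1, 56.0 and 58.1 CPM in RSF1 libraries and 85.3, 80.1 and 89.6 CPM in RSF1delUAB libraries, against 40.6, 37.3 and 35.9 CPM in control libraries. The groups did not overlap, with RSF1delUAB the highest and the control the lowest. The log2 fold change against control was 0.62 with RSF1 (standard error 0.08, adjusted p = 5.32e-07) and 1.17 with RSF1delUAB (standard error 0.08, adjusted p = 4.17e-11). In these bulk libraries, a change in the share of cells making a transcript and a change in RNA per cell cannot be told apart. The 8 fibroblast markers summed to 53.1 to 54.6 CPM in RSF1 libraries and 121 to 133 CPM in RSF1delUAB libraries, against 6.42 to 8.03 CPM in the control. LUM alone had 17.6 to 23.8 CPM in RSF1 libraries and 77.1 to 86.4 CPM in RSF1delUAB libraries, against 0.464 to 0.728 CPM in the control, whereas COL1A1 overlapped between the constructs, at 15.5 to 22.7 CPM with RSF1 and 16.5 to 18 CPM with RSF1delUAB, against 2.92 to 3.62 CPM in the control. PDGFRB was at 0 in RSF1delUAB and control libraries, and COL3A1 did not exceed 0.246 CPM in any SKOV3 library. Their part in the results on these genes was not tested.

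TGFB2 (ENSG00000092969, chromosome 1, 218345336 to 218444619, plus strand) encodes a second isoform, known for needing a co-receptor to bind well. Its levels were 7.11, 10.7 and 6.60 CPM in RSF1 libraries and 2.82, 1.68 and 2.16 CPM in RSF1delUAB libraries, against 0.926, 1.33 and 1.62 CPM in control libraries. All RSF1 libraries lay above the rest, and every RSF1delUAB library was above every control library by a narrow gap. In log2 terms TGFB2 differed from the control by 2.65 with RSF1 (standard error 0.26, adjusted p = 2.32e-08) and 0.78 with RSF1delUAB (standard error 0.30, adjusted p = 0.0294). The RSF1delUAB call was lost without RSF1delUAB replicate 1 (0.57, adjusted p = 0.15), control replicate 1 (0.60, adjusted p = 0.124) or control replicate 2 (0.80, adjusted p = 0.0569), and with limma-voom (0.77, adjusted p = 0.0695).

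INHBA (ENSG00000122641, chromosome 7, 41667168 to 41705834, minus strand) encodes the beta A chain that pairs with itself as activin A and with the INHA chain as inhibin A. It had 66.6, 86.3 and 79.7 CPM in RSF1 libraries and 18.3, 18.7 and 19.2 CPM in RSF1delUAB libraries, against 2.65, 1.99 and 3.55 CPM in control libraries. The groups were well apart, in the order RSF1, RSF1delUAB, control. This was the largest change among the tested members in each comparison with the control, a log2 fold change of 4.82 with RSF1 (28.3-fold, standard error 0.14, adjusted p = 1.93e-16) and 2.77 with RSF1delUAB (6.83-fold, standard error 0.16, adjusted p = 4.87e-12). INHA, by contrast, did not pass the test with either construct. It averaged 0.490 ± 0.205 CPM in RSF1 cells and 0.545 ± 0.207 CPM in RSF1delUAB cells, against 0.615 ± 0.144 CPM in control cells (SD, n = 3 each).

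BMP2 (ENSG00000125845, chromosome 20, 6767686 to 6780246, plus strand), a bone-inducing BMP that signals through BMPR1A and BMPR1B, had the highest TPM of the 4 BMPs in SKOV3. Its levels were 8.93, 9.34 and 7.17 CPM in RSF1 libraries and 8.19, 7.05 and 7.33 CPM in RSF1delUAB libraries, against 25.1, 25.2 and 27.1 CPM in control libraries. Every construct library lay below every control library, and the constructs overlapped. On the log2 scale BMP2 differed from the control by -1.61 with RSF1 (standard error 0.12, adjusted p = 2.16e-10) and -1.78 with RSF1delUAB (standard error 0.12, adjusted p = 4.69e-11). BMP2 was 3.05-fold lower with RSF1 and 3.43-fold lower with RSF1delUAB.

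BMP4 (ENSG00000125378, chromosome 14, 53949736 to 53958761, minus strand), the closest relative of BMP2, was near the limit of detection in SKOV3. It had 0.326, 0.508 and 1.07 CPM in RSF1 libraries and 0.691, 1.21 and 0.431 CPM in RSF1delUAB libraries, against 0.529, 0.398 and 0.646 CPM in control libraries. All groups overlapped. The log2 fold change of 0.27 with RSF1 (95% interval -0.83 to 1.38) and 0.57 with RSF1delUAB (95% interval -0.49 to 1.62) did not pass, with adjusted p = 0.662 and 0.334 by edgeR. At 5 to 21 reads per library a change of this size was not detectable.

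BMP3 (ENSG00000152785, chromosome 4, 81030708 to 81057627, plus strand), known as a BMP that opposes the signalling of others, and BMP7 (ENSG00000101144, chromosome 20, 57168753 to 57266641, minus strand) were too low in SKOV3 to be tested. For BMP3 4 reads were counted in RSF1 libraries and 0 in RSF1delUAB libraries, against 2 in control libraries. The ratio of RSF1 to control was 1.94, with a 95% counting interval of 0.279 to 21.5. For BMP7 the reads numbered 1 with RSF1 and 0 with RSF1delUAB, against 0 in the control.

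FST (ENSG00000134363, chromosome 5, 53480626 to 53487134, plus strand) encodes follistatin, which binds activin almost irreversibly. It was counted in each RSF1 library, at 0.782, 0.381 and 0.566 CPM, and in RSF1delUAB libraries at 0.160, 0.0578 and 0 CPM, against 0 in each control library. All RSF1 libraries lay above the others, while RSF1delUAB and control libraries overlapped at 0. Over the groups these were 27 reads with RSF1 and 4 with RSF1delUAB, against 0 in the control. Counting 3 reads over the control group as the floor, FST was at least 8.75-fold higher with RSF1. At 4 reads against 0, with overlapping libraries, no difference from the control is read for RSF1delUAB. FST did not pass the filter on low counts. With no filter the edgeR adjusted p was 5.79e-05 with RSF1 and 0.141 with RSF1delUAB.

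The readouts SMAD7 and ID1 had smaller fold changes than the 4 ligands that passed. SMAD7 (ENSG00000101665, chromosome 18, 48919853 to 48950965, minus strand) had 43.6, 45.6 and 44.9 CPM in RSF1 libraries and 42.6, 43.7 and 42.3 CPM in RSF1delUAB libraries, against 55.3, 56.7 and 57.7 CPM in control libraries. Every construct library was below every control library. SMAD7 had a log2 fold change of -0.34 with RSF1 (standard error 0.07, adjusted p = 0.000238) and -0.40 with RSF1delUAB (standard error 0.07, adjusted p = 3.99e-05).

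ID1 (ENSG00000125968, chromosome 20, 31605283 to 31606515, plus strand) had 448, 372 and 385 CPM in RSF1 libraries and 427, 413 and 429 CPM in RSF1delUAB libraries, against 476, 485 and 476 CPM in control libraries. The construct libraries again all lay below the control, RSF1 replicate 1 being the nearest to it. For ID1 the log2 fold change was -0.25 with RSF1 (standard error 0.07, adjusted p = 0.00211) and -0.18 with RSF1delUAB (standard error 0.07, adjusted p = 0.0221). Without RSF1 replicate 1 it was -0.34 with RSF1. The RSF1delUAB call did not outlast the loss of any single replicate of its groups, with adjusted p between 0.0534 and 0.106 when each of the 6 libraries was left out in turn.

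**Figure D3:**
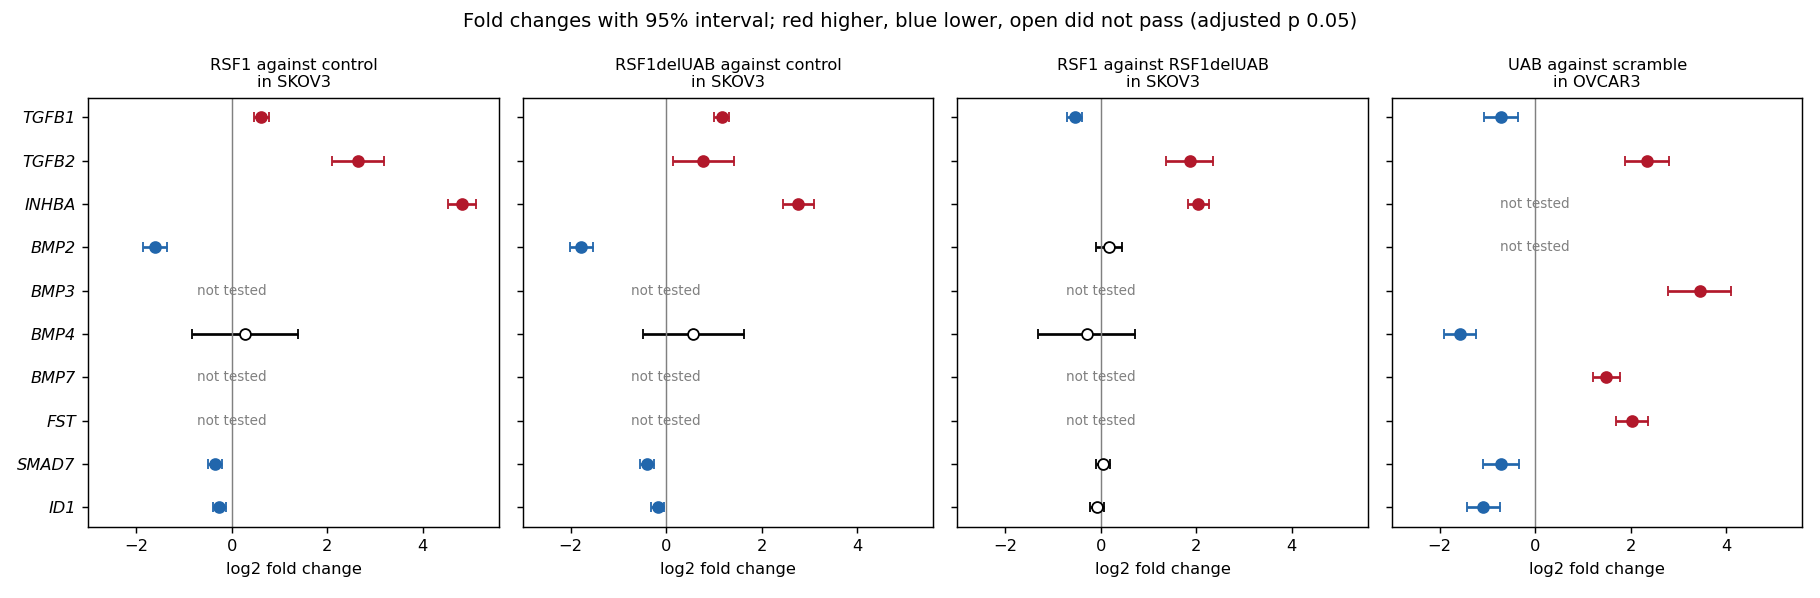
log2 fold change (x axis) of each of the 10 genes in the 4 comparisons, with the 95% interval; red is higher and blue lower in the group named first, at an edgeR adjusted p under 0.05, and open points did not pass. INHBA shows the largest difference in SKOV3 and BMP3 the largest in OVCAR3, while SMAD7 and ID1 lie left of 0 in the panels against control and scramble.

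The comparison of RSF1 with RSF1delUAB asks what depends on the UAB segment. It separated the TGF-beta and activin ligands, with TGFB2 and INHBA higher and TGFB1 lower with RSF1, and 3 of the 7 tested members passed, against 38.6% of all tested genes. The libraries are those given above. TGFB2 was 3.64-fold higher with RSF1 than with RSF1delUAB (log2 fold change 1.86, standard error 0.23, adjusted p = 2.43e-06 by edgeR). INHBA was 4.14-fold higher (2.05, standard error 0.11, adjusted p = 7.52e-12). TGFB1 was 1.45-fold lower (-0.54, standard error 0.07, adjusted p = 6.62e-06). The RSF1 gene exceeded its RSF1delUAB level by 0.56 on the log2 scale in RSF1 libraries (adjusted p = 5.07e-06), so the constructs differ in level as well as in the deletion, and the effects of these cannot be told apart.

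The other members did not pass between RSF1 and RSF1delUAB, which does not show that they were alike. The log2 difference was 0.17 for BMP2 (95% interval -0.10 to 0.44), 0.06 for SMAD7 (-0.09 to 0.21) and -0.08 for ID1 (-0.21 to 0.06), with adjusted p of 0.328, 0.539 and 0.403. For ID1 the direction was kept without RSF1 replicate 1, where it was -0.16 and passed the test (adjusted p = 0.00485). BMP4 had a wide interval (-0.29, from -1.31 to 0.73) and turned to 0.01 without RSF1 replicate 1 and to 0.16 without RSF1delUAB replicate 2. FST had 27 reads in RSF1 libraries and 4 in RSF1delUAB libraries, a difference that only the fit with no filter on low counts tested (adjusted p = 0.0155 by edgeR).

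The comparison in OVCAR3 asks what a peptide of the UAB segment changes in a line that has a high RSF1 level. With UAB, TGFB2, BMP3, BMP7 and FST were higher than with scramble, and TGFB1, BMP4, SMAD7 and ID1 were lower. All 8 tested members passed, against 10.9% of all 18359 tested genes, and 6 of them passed without scramble replicate 1. The other 2 were not tested: INHBA had 6 reads with UAB and 7 with scramble, and BMP2 had none. Since the 10 genes were chosen with results of these data known, no test of the count is given.

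BMP7 had the highest TPM of the 7 ligands in OVCAR3, and is a BMP that signals mainly through ACVR1 and the activin type II receptors. It had 421 and 440 CPM with UAB, against 142 and 164 CPM with scramble. Both UAB libraries lay far above both scramble libraries, with a log2 fold change of 1.49 (standard error 0.13, adjusted p = 6.65e-06 by edgeR). BMP3 had 12.8 and 9.33 CPM with UAB, against 0.727 and 1.30 CPM with scramble, without overlap. Its log2 fold change of 3.45 was the largest among the members (10.9-fold, standard error 0.31, adjusted p = 6.64e-06).

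BMP4 went the other way from BMP7 and BMP3. It had 10.6 and 11.1 CPM with UAB, against 31.2 and 33.4 CPM with scramble, both UAB libraries being lower. The log2 fold change was -1.58 (standard error 0.16, adjusted p = 1.63e-05 by edgeR).

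TGFB2 had 33.9 and 29 CPM with UAB, against 4.66 and 7.73 CPM with scramble, again without overlap. The log2 fold change was 2.34 (standard error 0.21, adjusted p = 7.94e-06 by edgeR). TGFB1 had 17.9 and 22.3 CPM with UAB, against 36.1 and 29.8 CPM with scramble, so both UAB libraries were lower. Its log2 fold change of -0.71 (standard error 0.17, adjusted p = 0.0126) lost its call without UAB replicate 1 (-0.56, adjusted p = 0.0827) or scramble replicate 1 (-0.57, adjusted p = 0.0738).

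FST, a low transcript in SKOV3, was abundant here. It had 72.0 and 77.9 CPM with UAB, against 16.1 and 20.5 CPM with scramble. The UAB libraries were both far higher, with a log2 fold change of 2.03 (4.09-fold, standard error 0.16, adjusted p = 2.06e-06 by edgeR). Of its activin partners, INHBA had 6 reads with UAB and 7 with scramble, while INHBB averaged 36.4 ± 2.29 CPM with UAB and 26.2 ± 7.16 CPM with scramble (SD, n = 2 each) and did not pass.

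Both readouts were lower with UAB. SMAD7 had 24.2 and 24.9 CPM with UAB, against 47.9 and 32.9 CPM with scramble, and the scramble libraries were far apart while the UAB libraries were close. The log2 fold change was -0.72 (standard error 0.18, adjusted p = 0.0165 by edgeR), and -0.42 without scramble replicate 1, where the call was lost (adjusted p = 0.25). ID1 had 308 and 363 CPM with UAB, against 827 and 596 CPM with scramble, a log2 fold change of -1.09 (2.12-fold lower, standard error 0.16, adjusted p = 0.000487). Scramble replicate 1 was again the higher of its pair, and without it the change was -0.83 and still passed. Immune markers moved in the same direction, with 6 markers summing to between 3.82 and 4.22 CPM with UAB and between 8.98 and 10.6 CPM with scramble, CD68 being at 0 in every OVCAR3 library, and their part was not tested.

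Set beside the readouts, the ligands gave no common order over the groups. Per length, SMAD7 averaged 44.1 ± 3.02 TPM with RSF1 and 42.0 ± 0.874 TPM with RSF1delUAB, against 56.1 ± 1.05 TPM in the SKOV3 control, and 22.1 ± 0.533 TPM with UAB, against 33.4 ± 7.82 TPM with scramble. ID1 averaged 1264 ± 66.6 TPM with RSF1 and 1327 ± 32.7 TPM with RSF1delUAB, against 1519 ± 13.7 TPM in the SKOV3 control, and 967 ± 67.5 TPM with UAB, against 1884 ± 376 TPM with scramble. From high to low, SMAD7 ran SKOV3 control, RSF1, RSF1delUAB, scramble and UAB, and ID1 ran scramble, SKOV3 control, RSF1delUAB, RSF1 and UAB. For both genes the neighbours RSF1 and RSF1delUAB overlapped, and for ID1 scramble and the SKOV3 control differed by less than the SD of scramble.

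Within SKOV3 the 3 ligands that were higher with the constructs stood beside lower readouts. On the log2 scale INHBA was higher by 4.82 with RSF1 and by 2.77 with RSF1delUAB. TGFB2 was higher by 2.65 and 0.78 in the same order, and TGFB1 by 0.62 and 1.17. SMAD7 fell by 0.34 with RSF1 and by 0.40 with RSF1delUAB, and ID1 fell by 0.25 with RSF1 and by 0.18 with RSF1delUAB. The median over 18q, the chromosome arm of SMAD7, was -0.52 with RSF1 and -0.59 with RSF1delUAB. Over 19q, the arm of TGFB1, it was 0.67 with RSF1 and 0.52 with RSF1delUAB. What part the arms had was not tested. BMP2, the highest of the 4 BMPs in SKOV3 per length, changed in the same direction as ID1. In OVCAR3 the most abundant of the 4 BMPs, BMP7, rose by 1.49 while ID1 fell by 1.09, and BMP4, next among the 4 with scramble, fell by 1.58. No correlation across libraries is given, because the libraries fall into 5 separate groups.

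Likeness across the 9 SKOV3 libraries was measured as the root-mean-square difference of centred log2 CPM, over genes of mean log2 CPM of at least 2. SMAD7 and ID1 differed from each other by 0.13, which put SMAD7 at rank 830 among the 11566 genes ordered by nearness to ID1. Both varied little over the libraries, with an SD of 0.19 for SMAD7 and 0.14 for ID1, so small differences from them show little. The tested ligands differed from a readout by between 0.56 (TGFB1 and ID1) and 2.12 (INHBA and SMAD7). The genes nearest to SMAD7 were CTNNB1, WAC and UGGT2 (0.03, 0.03 and 0.04), and those nearest to ID1 were STOML2, GNB2 and AUP1 (0.03, 0.03 and 0.04). TGFB1 was nearest to FGFR4, AIG1 and SEPTIN6 (0.06, 0.06 and 0.07), TGFB2 to SOD2, FLI1 and TAGLN (0.30, 0.32 and 0.33), and BMP2 to ARHGAP18, LINC02582 and MICU2 (0.10, 0.11 and 0.11). INHBA was nearest to ENSG00000283265, THBS1 and IGFBP3 (0.22, 0.34 and 0.34). BMP4 was nearest to ENSG00000286388, CCDC144A and ZNF789 (0.24, 0.35 and 0.35). Its SD was 0.53 at 5 to 21 reads per library, so these neighbours may reflect counting noise.

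Whole chromosome arms differed between construct and control libraries in SKOV3, and some members lie on such arms. On 19q, the arm of TGFB1, the 681 tested genes had a median log2 fold change of 0.67 with RSF1 and 0.52 with RSF1delUAB, beside 0.62 with RSF1 and 1.17 with RSF1delUAB for TGFB1. On 18q, the arm of SMAD7, the median of 185 genes was -0.52 with RSF1 and -0.59 with RSF1delUAB, so that SMAD7 stood 0.18 above its arm with RSF1 and 0.19 above it with RSF1delUAB. TGFB2 and INHBA differed from arms that moved the other way, 1q with a median of -0.52 with RSF1 and -0.53 with RSF1delUAB, and 7p with -0.20 with RSF1 and -0.16 with RSF1delUAB. On 14q, the arm of BMP4, the median of 557 genes was 0.64 with RSF1 and 0.56 with RSF1delUAB, beside 0.27 with RSF1 and 0.57 with RSF1delUAB for BMP4, which did not pass. The arms of BMP2 and ID1, 20p and 20q, had medians between -0.03 and 0.05. What part an arm had in a member's value was not tested. In OVCAR3 the medians of the arms of the 8 tested members were between -0.10 and 0.13.

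**Figure D4:**
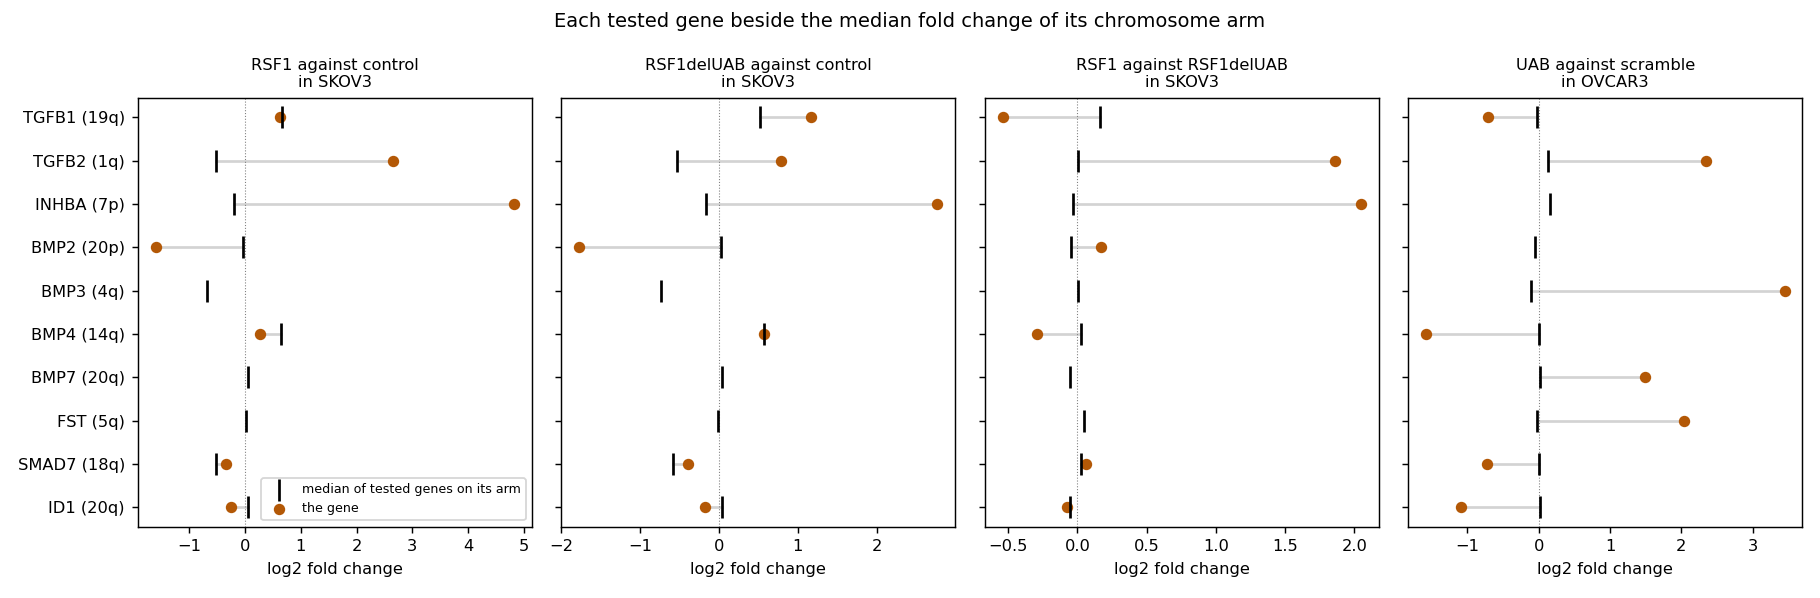
log2 fold change of each tested member (orange) beside the median of the tested genes on its chromosome arm (black bar), in the 4 comparisons; the x axes differ in range. With RSF1, TGFB1 lies on the bar of 19q and SMAD7 near that of 18q, while TGFB2, INHBA and BMP2 lie far from theirs.

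Some members share exonic bases with another gene, and whether strand was used in counting is not stated. TGFB2 shares 1371 of its 6050 exonic bases with TGFB2-OT1, on the same strand and listed at 0 in every library, and 701 with TGFB2-AS1, on the opposite strand, which had at most 8 reads in a library. INHBA shares 248 of 8284 bases with INHBA-AS1, which had 5, 24 and 17 reads in RSF1 libraries against 1022, 1358 and 1268 for INHBA. TGFB1 shares 215 of 3264 bases with HNRNPUL1, on the opposite strand. HNRNPUL1 had 5561 to 8589 reads per SKOV3 library, against 555 to 1604 for TGFB1. In OVCAR3 libraries it had 3078 to 4444 reads, against 366 to 844 for TGFB1. BMP4 shares 506 of 3096 with ENSG00000287156, which had 9 and 9 reads with UAB and 46 and 53 with scramble. Reads in shared bases cannot be assigned here.

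The rest of the pathway was described from 7 lists of genes. Their counts against the SKOV3 control stand beside 34.3% of all tested genes higher and 32.9% lower with RSF1, and 34.5% higher and 32.1% lower with RSF1delUAB, with an all-gene median log2 fold change of 0.02 in each. Of 26 other ligands of the family 13 were tested in SKOV3, and 7 rose and 4 fell with RSF1 (median log2 fold change 2.12), and 9 rose and 2 fell with RSF1delUAB (median 1.17). GDF15, a stress-induced member, reached 223 ± 27.8 CPM in RSF1 cells and 112 ± 6.47 CPM in RSF1delUAB cells, against 9.31 ± 0.245 CPM in control cells (SD, n = 3 each). BMP8B reached 9.81 ± 0.600 CPM in RSF1 cells and 9.48 ± 0.760 CPM in RSF1delUAB cells, against 1.47 ± 0.394 CPM in control cells, but shares much of its sequence with BMP8A, so its reads are uncertain. GDF7 had 158 reads with RSF1 and 279 with RSF1delUAB, against 2 in the control; the count ratios were 76.8 (from 20.9 to 639 by a 95% counting interval) and 122 (33.4 to 1010). INHBE, the beta E chain, rose by 5.96 on the log2 scale with RSF1 and by 4.01 with RSF1delUAB. It had 343 reads with RSF1 and 98 with RSF1delUAB, against 5 in the control, so the size of these changes is uncertain. INHBB, the beta B chain of activin B, which was singled out after its values were seen, had 40 reads with RSF1 and 62 with RSF1delUAB, against 1 in the control; the count ratios were 38.9 (from 6.59 to 1573 by a 95% counting interval) and 54.1 (9.35 to 2170). AMH, the anti-Muellerian hormone, fell by 1.33 on the log2 scale with RSF1 and by 1.45 with RSF1delUAB. BMP6 had 1.87 ± 0.550 CPM with RSF1, 7.93 ± 0.795 CPM with RSF1delUAB and 6.46 ± 0.280 CPM in the control, and its log2 fold change of -1.78 with RSF1 passed while that of 0.29 with RSF1delUAB did not. GDF9 fell by 1.12 with RSF1delUAB, a call that was lost with DESeq2 (adjusted p = 0.0582) and when any of 4 single libraries (RSF1delUAB replicates 1 and 3, control replicates 1 and 3) was left out.

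Of 18 receptors and co-receptors 15 were tested (all genes called: 67.3% with RSF1 and 66.6% with RSF1delUAB), and 1 rose and 8 fell with RSF1 (median log2 fold change -0.22), and 4 rose and 6 fell with RSF1delUAB (median -0.09). ACVRL1, a type I receptor best known from endothelium, reached 21.3 ± 0.330 CPM in RSF1 cells and 20.7 ± 1.10 CPM in RSF1delUAB cells, against 1.31 ± 0.335 CPM in control cells (SD, n = 3 each). The 5 endothelial markers summed to 0.699 to 1.01 CPM in RSF1 libraries and 0.678 to 0.924 CPM in RSF1delUAB libraries, against 5.36 to 7.63 CPM in control libraries. Of these, KDR had 3.75 to 4.23 CPM in control libraries and 0.266 to 0.635 CPM in construct libraries. PECAM1 had 1.49 to 3.58 CPM in control libraries and 0.0635 to 0.289 CPM in construct libraries. CDH5, VWF and TEK did not exceed 0.372 CPM in any SKOV3 library. The part of these markers was not tested. TGFBR3, the co-receptor betaglycan, fell by 1.10 on the log2 scale with RSF1 and by 0.60 with RSF1delUAB. BMPR1B, a type I BMP receptor, fell by 1.39 with RSF1 and by 0.46 with RSF1delUAB. ACVR1C fell by 2.94 with RSF1delUAB, and ACVR1B rose by 0.56 there. Of 16 further antagonists 7 were tested and all 7 passed with each construct, 2 higher and 5 lower with RSF1, and 3 higher and 4 lower with RSF1delUAB, beside the same shares of all genes. CHRD (chordin, which sequesters BMPs) reached 4.98 ± 0.0352 CPM in RSF1 cells and 8.61 ± 1.01 CPM in RSF1delUAB cells, against 0.109 ± 0.0375 CPM in control cells. DCN (decorin, a proteoglycan that binds TGF-beta and is itself among the fibroblast markers) had 192 reads with RSF1 and 460 with RSF1delUAB, against 3 in the control; the count ratios were 62.2 (from 21 to 304 by a 95% counting interval) and 134 (45.5 to 651). FSTL3, a relative of follistatin that also binds activin, fell by 0.69 on the log2 scale with RSF1 and by 0.38 with RSF1delUAB.

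Of 14 genes of TGF-beta latency and activation 12 were tested, and 9 rose and 2 fell with RSF1 (median 1.07), and 9 rose and 1 fell with RSF1delUAB (median 1.92), where 34.3% of all genes rose and 32.9% fell with RSF1, and 34.5% rose and 32.1% fell with RSF1delUAB. THBS1, which can activate latent TGF-beta, reached 311 ± 37.2 CPM in RSF1 cells and 117 ± 3.83 CPM in RSF1delUAB cells, against 16.1 ± 0.945 CPM in control cells (SD, n = 3 each). LTBP4, a latent TGF-beta binding protein, reached 153 ± 11.5 CPM in RSF1 cells and 104 ± 3.31 CPM in RSF1delUAB cells, against 24.1 ± 1.26 CPM in control cells. ITGAV, the integrin chain that releases TGF-beta from its latent complex with ITGB6 or ITGB8, fell by 0.91 on the log2 scale with RSF1 and by 1.04 with RSF1delUAB. FURIN, which cleaves the precursors, fell by 0.36 with RSF1.

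All 16 SMADs and intracellular regulators were tested in SKOV3, and 2 rose and 9 fell with RSF1 (median -0.22), and 2 rose and 11 fell with RSF1delUAB (median -0.23), beside 67.3% of all genes called with RSF1 and 66.6% with RSF1delUAB. SMAD2, on 18q as SMAD7 and SMAD4 are, fell by 1.16 with RSF1 and by 1.02 with RSF1delUAB on the log2 scale, and SMAD4 fell by 0.65 with RSF1 and by 0.48 with RSF1delUAB. SMAD3 divided the constructs, with 177 ± 19.2 CPM in RSF1 cells and 50.4 ± 3.90 CPM in RSF1delUAB cells, against 111 ± 3.00 CPM in control cells (SD, n = 3 each). Its log2 fold change was 0.67 with RSF1 (adjusted p = 2.77e-07 by edgeR), -1.14 with RSF1delUAB (adjusted p = 1.92e-10) and 1.81 between RSF1 and RSF1delUAB (adjusted p = 7.88e-13). PMEPA1, a TGF-beta-induced inhibitor of the pathway, rose by 0.84 with RSF1 and by 1.56 with RSF1delUAB.

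Of 18 genes known as targets of TGF-beta and activin 16 were tested, and 7 rose and 6 fell with RSF1 (median 0.14), and 8 rose and 7 fell with RSF1delUAB (median 0.55), beside the same shares of all genes. The matrix genes TGFBI and FN1 rose. TGFBI averaged 298 ± 5.36 CPM in RSF1 cells and 522 ± 6.45 CPM in RSF1delUAB cells, against 27.2 ± 2.57 CPM in control cells, and FN1 averaged 8073 ± 1986 CPM in RSF1 cells and 3078 ± 157 CPM in RSF1delUAB cells, against 309 ± 23.0 CPM in control cells (SD, n = 3 each). The cell-cycle inhibitor CDKN1A fell by 2.14 on the log2 scale with RSF1 and by 1.38 with RSF1delUAB, and TSC22D1 fell by 1.29 with RSF1 and by 0.53 with RSF1delUAB. ANGPTL4, a secreted protein induced by TGF-beta, fell by 0.61 with RSF1 and by 4.09 with RSF1delUAB.

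Of the 10 BMP target genes 4 rose and 5 fell with each construct (median -0.19 with RSF1 and -0.43 with RSF1delUAB), beside 67.3% of all genes called with RSF1 and 66.6% with RSF1delUAB. HEY1, a transcription factor shared with the Notch pathway, fell by 2.80 with RSF1 and by 2.18 with RSF1delUAB on the log2 scale, and the homeobox gene MSX1 fell by 2.11 with RSF1 and by 2.29 with RSF1delUAB. ATOH8 rose by 5.11 with RSF1 and by 3.05 with RSF1delUAB. The relatives of ID1 did not share a direction: ID3 had 104 ± 16.1 CPM in RSF1 cells and 45.5 ± 3.17 CPM in RSF1delUAB cells, against 77.1 ± 3.19 CPM in control cells, and ID2 had 21.9 ± 2.82 CPM in RSF1 cells and 61.3 ± 1.55 CPM in RSF1delUAB cells, against 16 ± 1.12 CPM in control cells (SD, n = 3 each). All of these values passed the test against control.

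Between RSF1 and RSF1delUAB the lists held 6 passing members of 13 other ligands, 7 of 15 receptors, 5 of 7 antagonists, 9 of 12 latency genes, 6 of 16 SMADs and regulators, 13 of 16 TGF-beta targets and 7 of 10 BMP targets, against 38.6% of all tested genes. All 5 antagonists that passed were lower with RSF1, among them the protease HTRA1, which averaged 50.9 ± 3.67 CPM in RSF1 cells and 152 ± 6.48 CPM in RSF1delUAB cells (SD, n = 3 each). LTBP1 was 1.36 lower on the log2 scale in RSF1 libraries (138 ± 15.2 CPM, against 353 ± 6.43 CPM with RSF1delUAB), and THBS1 was 1.41 higher. Within the ID genes ID3 was 1.19 higher and ID2 fell by 1.48 with RSF1 relative to RSF1delUAB.

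In OVCAR3 10.9% of all tested genes passed, 5.45% higher and 5.46% lower, and the counts of the lists stand beside these shares. Of 14 other ligands 2 passed, both lower; of 16 receptors 4 passed, all higher; of 11 antagonists 1 rose and 1 fell; and of 14 latency genes 2 passed, both higher. BMPR1B reached 9.05 ± 1.61 CPM with UAB and 1.89 ± 0.622 CPM with scramble (SD, n = 2 each; log2 fold change 2.26, adjusted p = 0.000131), and NOG, which encodes the BMP antagonist noggin, reached 60.6 ± 7.05 CPM with UAB and 32.5 ± 5.38 CPM with scramble (0.90, adjusted p = 0.00178). BMP6 fell by 1.77 on the log2 scale. LTBP1 rose by 0.86 and THBS1 by 0.76. None of the 16 SMADs and intracellular regulators passed by edgeR, DESeq2 or limma-voom, and 2 of them had an unadjusted edgeR p under 0.05.

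Target genes of both branches were lower with UAB where they passed, except HEY1. Of 17 TGF-beta and activin targets 4 passed, all lower, and of 9 BMP targets 1 rose and 3 fell, where 5.45% of all tested genes rose and 5.46% fell. The medians were 0.10 for the TGF-beta and activin targets and -0.43 for the BMP targets, against 0.01 over all genes. JUNB, an AP-1 subunit, had 65.8 ± 4.63 CPM with UAB and 144 ± 14 CPM with scramble, and CDKN2B, a cell-cycle inhibitor induced by TGF-beta, had 33.4 ± 5.72 CPM with UAB and 77.9 ± 2.18 CPM with scramble (SD, n = 2 each). Of the ID family, ID3 fell by 1.08 (51.2 ± 3.12 CPM with UAB, against 108 ± 36.2 CPM with scramble) and ID4 fell by 0.71. HEY1 rose by 0.64. The calls of ID4 and HEY1 were lost without scramble replicate 1 (log2 fold changes of -0.46 and 0.37, adjusted p = 0.166 and 0.387), and that of BMP8A, which fell by 0.86, without UAB replicate 2 or scramble replicate 2.

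**Figure D5:**
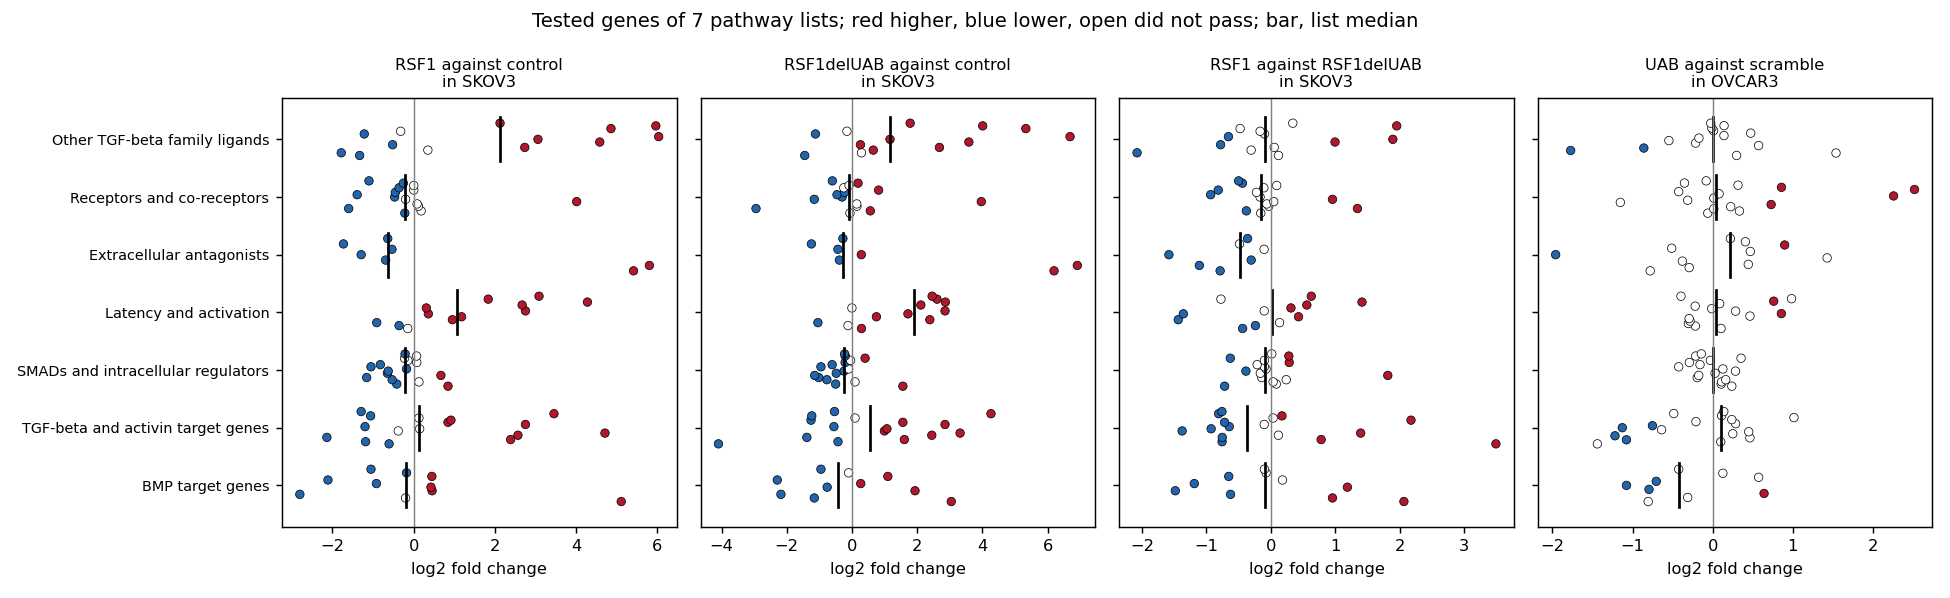
log2 fold change (x axis) of each tested gene of the 7 lists (rows) in the 4 comparisons, red higher and blue lower at an edgeR adjusted p under 0.05 and open not passing, with the list median as a bar. Latency genes lie mostly right of 0 in the panels against the SKOV3 control, and most points in the OVCAR3 panel are open.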

How the data were processed

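Libraries were grouped by the genotype and treatment in the labels; 1 OVCAR3 column carries an additional letter in its name and was read as scramble replicate 2. The values deposited by the authors are raw counts per gene, in 1 table per cell line, and both tables were used whole. Per the submitters' processing notes, FastQC, STAR 2.7.9a and Subread were used, while the strand setting is not given in the sources used here. Per the labels' protocols, polyadenylated RNA was selected with poly-T beads and primed with random hexamers. Positions in the tables are those of GRCh38, and 62625 of the 62703 identifiers matched a symbol.

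The lines were fitted separately in edgeR 4.0.16 (R 4.3.3), with TMM factors, genes kept by filterByExpr at a minimum count of 10, quasi-likelihood tests on group only, and Benjamini-Hochberg adjustment over all 16735 tested genes in SKOV3 and 18359 in OVCAR3, with a threshold of 0.05. Fold changes use a prior count of 0.125. Residual degrees of freedom were 6 in SKOV3 and 2 in OVCAR3, and total counts of 15194678 to 24026993 per library set the precision. TPM was computed from the counts and the exonic lengths in the tables. Counting intervals are 95% and cover counting error only, as does the floor of 3 counts. Chromosome arms were divided at approximate GRCh38 centromere positions entered by hand. The fit was tested on simulated data. Alternatives were RLE size factors, DESeq2 1.42.0, limma-voom (limma 3.58.1), no filter, a minimum count of 20, only the groups compared, a replicate block and each replicate left out.

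The members and the lists were chosen with earlier results of these data known. Named genes are the 10 members, RSF1, up to 2 risen and 2 fallen genes of each list and comparison with the smallest adjusted p, and the 3 genes most alike to each member tested in SKOV3. Some genes that this rule takes are not reported here.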

Additional observations from a re-analysis of the deposited data

How the results depend on the processing

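Of 357 alternative values for the members 340 kept their direction and their side of the threshold, 13 lost a call, 1 gained one and 3 turned direction. The reversals were all of BMP4, which never passed in SKOV3: against the control it was -0.32 without RSF1 replicate 3, and against RSF1delUAB it was 0.01 without RSF1 replicate 1 and 0.16 without RSF1delUAB replicate 2. With each replicate left out in turn it ran from -0.32 to 0.58 against the control and from -0.89 to 0.16 against RSF1delUAB. The RSF1 gene in OVCAR3 turned to -0.11 without UAB replicate 1 and to -0.04 without scramble replicate 1, in a range of -0.11 to 0.31. Among the listed genes and RSF1, 1221 of 1232 alternative values kept theirs. The cause of these changes was not tested. Leaving out 1 replicate at a time, the members called numbered 6 in each case with RSF1, 4 to 5 with RSF1delUAB, 3 to 4 between RSF1 and RSF1delUAB and 6 to 8 with UAB; the genes called numbered 10674 to 11633, 10455 to 10588, 5461 to 7081 and 1340 to 2239. With no filter 7, 6, 4 and 8 members were called, FST being the added one.

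Replicate numbers showed no clear pairing in SKOV3, where deviations of same-numbered libraries correlated at -0.0417 to 0.0712. In OVCAR3 same-numbered libraries correlated at -0.149 and crossed ones at 0.149. With 2 libraries per group these values mirror each other by construction, so they cannot settle whether OVCAR3 libraries were paired. With the number as a replicate block, 6, 6, 3 and 8 members and 11164, 11007, 6333 and 1770 genes were called in the 4 comparisons. Crossing the OVCAR3 numbers, an alternative chosen after seeing the data, called 5097 genes, against 2004 with no block, and 8 members. Depth limits BMP4, BMP3, BMP7 and FST in SKOV3 and INHBA and BMP2 in OVCAR3.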
